A study of Homo sapiens with 26 samples.

Results

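This section describes how cells labelled as lacking both CDK8 and CDK19 differed in gene expression from cells labelled as lacking CDK19 alone. The comparison rests on the sample labels: 12 of the 26 RNA sequencing libraries of the study belong to it, 6 labelled as double knockout (DKO) and 6 labelled as CDK19 knockout (CDK19KO). All are derived from HCT116, a human colorectal carcinoma line, by CRISPR knockout. DKO came as sublines C1 and C2 and CDK19KO as sublines C1 and C2, with 3 libraries each and no drug. The labels do not say how many clones stand behind a subline, which part of each gene was edited, or whether libraries of a subline came from separate cultures, so p-values measure only the spread between these libraries. A second pair of groups that shares no library with the first served as the same step on another background: CDK8 knockout cells (CDK8KO, sublines C1 and C2, 6 libraries) against unedited HCT116 control cells (3 libraries). The 5 libraries given the BET inhibitor JQ1 entered the fit but no comparison. In bulk RNA, fewer cells of a type and less RNA per cell cannot be told apart.

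CDK8 and CDK19 are paralogous kinases. Each can take the kinase position in a module of Mediator, the complex that carries signals from DNA-bound transcription factors to RNA polymerase II; cyclin C, MED12 and MED13 complete the module. The module both restrains and assists transcription, depending on the gene. In colorectal cancer, CDK8 is known as an oncogene that acts with beta-catenin. The question here is what targeting CDK8 adds once CDK19 is lost.

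Gene counts per library were 18329406 to 18891777 in DKO and 17700864 to 18762459 in CDK19KO, and 17198 of 58039 genes passed the count minimum for testing. Levels are given as CPM, library-size-scaled counts with TMM factors, and changes as log2 fold changes, DKO over CDK19KO, ± the standard error (SE). Calls are adjusted p-values under 0.05 in edgeR's quasi-likelihood test, with Benjamini-Hochberg adjustment. Pairs of libraries within a subline correlated across genes with r of 0.992 to 0.995, and none was as close as counting alone would make it. Library b of DKO-C2 stood furthest from its 2 sister libraries, with chi-square per degree of freedom of 13.2 and 10.8. All other pairs had 1.69 to 8.04. The DKO columns differ from all other groups in how counts fall on sequence that genes share. Pseudogenes took 0.422% to 0.463% of gene counts in DKO, against 2.72% to 3.15% in CDK19KO, and 2.67% to 2.95% in CDK8KO and control. A change in counting and the DKO genotype cannot be told apart for a gene that shares sequence. The account therefore leads with 6391 of the 13198 tested protein-coding genes that share under 10% of their 50-base words with other genes' transcripts and have no exon in common with another gene on either strand, called here genes with little shared sequence. Scaling by the ERCC spike-in transcripts, which the labels name for DKO and control but not for the single knockouts although all libraries hold their counts, moved the median of all tested genes by 0.749 on the log2 scale, so every change below is relative to the bulk of genes, and a gene that fell by less than about that amount turns positive with ERCC scaling.

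CDK8 RNA was lower in the DKO libraries and CDK19 RNA was higher. CDK8 (chr13:26254104-26405238, plus strand, build hg38) had 39.9, 35.4 and 38.1 CPM in DKO-C1 and 40.4, 38.8 and 37.9 CPM in DKO-C2, against 56.5, 57.2 and 52 CPM in CDK19KO-C1 with 55, 56 and 58.8 CPM in CDK19KO-C2. All 6 DKO libraries lay below all 6 CDK19KO libraries, a change of -0.54 ± 0.039 (adjusted p = 5.3e-15). With ERCC scaling the direction of CDK8 flipped, to 0.20. The level was 45.4 CPM in CDK8KO and 50.9 CPM in control. CDK19 (chr6:110609978-110815958, minus strand) had 34.8, 33.1 and 31.8 CPM in DKO-C1 and 39.7, 34.6 and 41.3 CPM in DKO-C2, against 20.3, 18.8 and 17.5 CPM in CDK19KO-C1 with 26.9, 23.8 and 25.4 CPM in CDK19KO-C2. The groups did not overlap, with a change of 0.71 ± 0.053 (adjusted p = 1e-14). The libraries labelled DKO thus held more CDK19 RNA than those labelled CDK19KO, and their values, 31.8 to 41.3 CPM, also lay above the control values of 29.9, 24.4 and 27.4 CPM. This was not particular to DKO: CDK8KO averaged 34.3 CPM and was also called above control (0.33 ± 0.063). An edit can disable a gene without lowering its RNA, and counts over a whole gene do not show it, so these values do not check the knockouts. Among the other subunits of the module, CCNC, which encodes cyclin C and overlaps another gene's exon, was lower (-0.40, flipping to 0.34 with ERCC scaling) and MED12 was higher (0.37 ± 0.045). Of the 7 kinase module genes, 5 were called higher and 2 lower. Of 26 core Mediator genes, 11 were called higher and 11 lower with a median of 0.08; MED1 was higher (0.31) and MED24 lower (-0.53, or 0.23 with ERCC scaling), and MED1 was not called with sublines as units.

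Most genes differed between the libraries, though far fewer were called when sublines were taken as the units. Of all tested genes, 6110 (35.5%) were called higher in DKO and 5969 (34.7%) lower; with ERCC scaling the split was 13623 higher and 1647 lower. Of the genes with little shared sequence, 2735 (42.8%) were called higher and 2034 (31.8%) lower, and 522 (8.17%) and 217 (3.4%) of them by at least 2-fold. Every DKO library lay above every CDK19KO library for 20.9% of these genes and below for 14.9%. Calls that were the same in each of the 4 pairings of a DKO with a CDK19KO subline numbered 1347 (21.1%) higher and 951 (14.9%) lower among genes with little shared sequence, or 4200 and 56 with ERCC scaling. Counts of list members are read against these percentages, and list medians against 0.0157 over all tested genes and 0.0647 over those with little shared sequence. When sublines rather than libraries were taken as the units, 756 of the 1347 (56.1%) and 465 of the 951 (48.9%) were still called.

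Targets of YAP and TEAD were higher in DKO. YAP is a coactivator held back by the Hippo kinases, and it acts on DNA through TEAD factors. Of 24 tested list members, 21 were called higher and 3 lower, with a median of 1.24. Of 15 with little shared sequence, 8 were higher and 0 lower in all 4 pairings, and the median was 1.28. TEAD proteins recognise the letters GGAATG, and the 250 bases before the start of the 2 list members that rose most are shown for that reason, with matches to GGAATG in capitals. Both come from RefSeq, build GRCh38.p14, on the minus strand: CTGF at chr6:131951373-131951622 and ANKRD1 at chr10:90921088-90921337.
CTGF: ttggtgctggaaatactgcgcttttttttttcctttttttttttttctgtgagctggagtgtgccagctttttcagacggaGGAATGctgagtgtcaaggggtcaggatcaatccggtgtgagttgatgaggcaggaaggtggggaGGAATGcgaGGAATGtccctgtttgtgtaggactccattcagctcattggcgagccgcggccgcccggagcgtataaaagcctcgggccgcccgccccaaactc
ANKRD1: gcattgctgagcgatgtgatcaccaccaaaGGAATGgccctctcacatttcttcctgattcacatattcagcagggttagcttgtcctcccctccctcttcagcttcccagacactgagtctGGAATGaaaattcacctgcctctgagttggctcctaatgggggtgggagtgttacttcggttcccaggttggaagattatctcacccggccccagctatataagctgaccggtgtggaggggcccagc
The first bases of the 3 matches of CTGF lie 169, 104 and 95 bases before the start, and those of the 2 matches of ANKRD1 lie 220 and 128 bases before it. GGAATG or its reverse complement CATTCC occurs in 4175 of 35116 such windows (11.9%). EDN1, which is not on the list and rose more than either, has 3 start windows in the same table, of which 2 hold no match and 1 holds 1. A match is a description of the letters, not a site shown to be bound.

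CYR61, a secreted matricellular protein and the gene most used as a YAP readout, had 447, 405 and 417 CPM in DKO-C1 and 554, 559 and 519 CPM in DKO-C2, against 9.46, 11.2 and 10.8 CPM in CDK19KO-C1 with 23.4, 25 and 28.5 CPM in CDK19KO-C2. The lowest DKO library held many times the highest CDK19KO library. The change was 4.87 ± 0.093 (adjusted p = 1.6e-33). In control the gene had 12, 28.6 and 20.2 CPM, close to the CDK19KO values. ANKRD1, a nuclear cofactor of stretched muscle, had 16.4, 15.5 and 14.9 CPM in DKO-C1 and 14.4, 11.8 and 14.2 CPM in DKO-C2, against 0, 0.0557 and 0.0557 CPM in CDK19KO-C1 with 0.978, 0.954 and 0.917 CPM in CDK19KO-C2. It was nearly silent in CDK19KO-C1 and low in CDK19KO-C2, and the change was 6.15 ± 0.17 (adjusted p = 3.8e-28), from 3.82 to 8.48 over the 4 pairings and larger against CDK19KO-C1. CTGF, a relative of CYR61, averaged 234 CPM in DKO and 6.61 CPM in CDK19KO and changed by 6.07 ± 0.10, from 3.92 to 8.21 over the pairings and again larger against CDK19KO-C1; one exon of another gene lies over it on the opposite strand, so its counts are less certain. CRIM1, a membrane protein that binds bone morphogenetic proteins, also overlaps another gene and averaged 317 CPM in DKO and 66.1 CPM in CDK19KO. Among the members with little shared sequence, GADD45B (1.85), NUAK2 (1.68), ASAP1 (1.59), NT5E (1.52), LATS2 (0.74) and TEAD1 itself (0.69) rose in all 4 pairings.

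**Figure D1:**
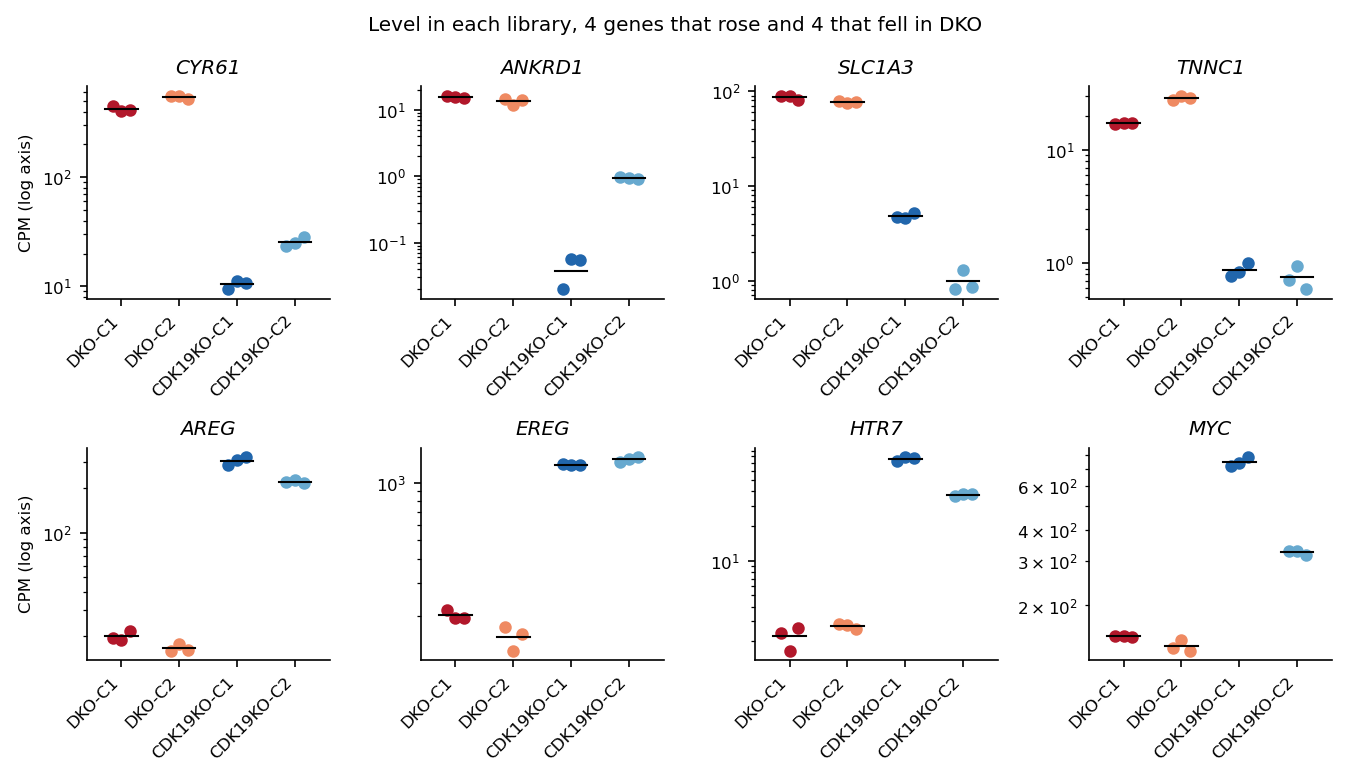
CPM on a log axis in each of the 12 libraries for 8 genes, with 3 points per subline and a line at the subline mean; a library at 0 is drawn at 0.02. CYR61, ANKRD1, SLC1A3 and TNNC1 are higher in every DKO library, and AREG, EREG, HTR7 and MYC are lower in every DKO library, while CDK19KO-C1 and CDK19KO-C2 differ from each other for several of them.

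Genes of the contractile apparatus rose with few exceptions. Of 23 tested actin-binding and muscle-type genes, 22 were called higher and 0 lower, with a median of 1.09, and all 10 of the 10 with little shared sequence rose in all 4 pairings (median 1.36). TNNC1, troponin C of slow and cardiac muscle, had 17.1, 17.5 and 17.2 CPM in DKO-C1 and 27.5, 30.2 and 28.8 CPM in DKO-C2, against 0.774, 0.836 and 1 CPM in CDK19KO-C1 with 0.706, 0.954 and 0.594 CPM in CDK19KO-C2. The groups were far apart, with a change of 4.78 ± 0.11 (adjusted p = 2.1e-31). MYL2, the regulatory light chain of cardiac myosin, had 7.46, 7.30 and 9.56 CPM in DKO-C1 and 13.8, 15.8 and 12.3 CPM in DKO-C2, against 0.332, 0.279 and 0.445 CPM in CDK19KO-C1 with 0.326, 0.561 and 0.378 CPM in CDK19KO-C2, a change of 4.76 ± 0.17 (adjusted p = 7e-25). Both genes lay between these levels or near the DKO level in CDK8KO, at 8.31 and 10.2 CPM, and low in control, at 2.07 and 1.15 CPM. More general parts of the apparatus also rose. MYL9, a light chain of smooth muscle and nonmuscle myosin, averaged 445 CPM in DKO and 63.8 CPM in CDK19KO. MYH9, the nonmuscle myosin heavy chain, averaged 1743 CPM in DKO and 641 CPM in CDK19KO. TAGLN, an actin-bundling protein of smooth muscle with an opposite-strand overlap, averaged 129 CPM in DKO and 5.05 CPM in CDK19KO. CALD1, CNN3, TAGLN2, TNNT1, TPM2 and ACTG2 rose by 1.02, 1.25, 0.94, 0.60, 0.36 and 3.77. SRF, the factor that drives many contractile genes, rose by 0.88.

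Most matrix genes were higher in DKO. Of 21 collagens and laminins tested, 16 were called higher and 2 lower (median 0.93), and 9 of 12 with little shared sequence were higher in all 4 pairings. LAMC1, the common laminin gamma chain, averaged 200 CPM in DKO and 72.4 CPM in CDK19KO, a change of 1.47 ± 0.041. COL12A1, which associates with collagen fibrils, and COL13A1, a transmembrane collagen, rose by 2.43 and 3.15, but their CDK19KO sublines stood apart and neither was called with sublines as units. COL13A1 averaged 68.6 CPM in DKO-C1 and 120 CPM in DKO-C2, against 1.96 CPM in CDK19KO-C1 but 53.6 CPM in CDK19KO-C2. COL6A1 and COL6A2 rose by 0.93 and 0.84. Fibronectin, FN1, averaged 77.4 CPM in DKO and 8.73 CPM in CDK19KO and rose by 3.18 ± 0.057. Of 16 mesenchymal genes, 12 were called higher and 1 lower, with a median of 2.28 over the list and 0.89 over its 8 members with little shared sequence. SNAI2 rose by 2.93 while SNAI1, a related repressor of epithelial genes, fell (7.03 CPM in DKO and 14.3 CPM in CDK19KO). CDH1, the epithelial cadherin, was higher as well (108 CPM in DKO and 61 CPM in CDK19KO), though not called with sublines as units. It fails the condition of little shared sequence, so its counts are less certain. Of the 6 fibroblast markers, DCN and LUM had 0 counts in all 12 libraries. The summed level of those markers was 23.6 to 31.5 CPM in DKO and 15.3 to 20.2 CPM in CDK19KO, nearly all of it COL1A1.

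TGF-beta targets leaned the same way. Of 20 tested, 14 were called higher and 4 lower (median 0.59), and of 15 with little shared sequence 6 were higher and 1 lower in all 4 pairings. The inhibitory SMADs, which feed back on the pathway, rose: SMAD6 by 2.03 ± 0.061 and SMAD7 by 1.59 ± 0.082. PMEPA1, another feedback inhibitor, averaged 29.4 CPM in DKO and 3.53 CPM in CDK19KO, with an exon overlapped by another gene and no call with sublines as units. SKI, a corepressor of SMADs, was lower (-0.30 ± 0.036), while its relative SKIL was higher (0.94 ± 0.074).

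The other large rises came from genes of diverse function. EDN1, the precursor of the vasoconstrictor endothelin-1, had 13.1, 12.5 and 11.7 CPM in DKO-C1 and 17.2, 19.2 and 15.2 CPM in DKO-C2, against 0, 0 and 0.0557 CPM in CDK19KO-C1 with 1.57, 1.29 and 1.40 CPM in CDK19KO-C2, a change of 6.26 ± 0.18 (adjusted p = 1.6e-27). Against CDK19KO-C1, with 1 count in all, its fitted change depends on the prior count, and the pairings ran from 3.12 to 9.41. FGF1, a growth factor, averaged 7.85 CPM in DKO and 0.284 CPM in CDK19KO and changed by 5.27 ± 0.19 (adjusted p = 2.4e-24), from 3.75 to 6.79 over the pairings. SLC1A3, a glutamate and aspartate transporter, had 88.1, 89.7 and 81.5 CPM in DKO-C1 and 79.3, 74.5 and 77.6 CPM in DKO-C2, against 4.65, 4.62 and 5.18 CPM in CDK19KO-C1 with 0.815, 1.29 and 0.864 CPM in CDK19KO-C2. Here CDK19KO stood below control, at 24.6, 27 and 26.2 CPM, and DKO above it; the change was 5.22 ± 0.066 (adjusted p = 1.6e-39). SKIDA1, which carries a domain related to SKI, averaged 9.87 CPM in DKO and 1 CPM in CDK19KO. For 4 further genes the CDK19KO sublines also differed widely, and the call did not hold with sublines as units. DCLK1, a doublecortin-like kinase, had 29.4, 28.6 and 27.1 CPM in DKO-C1 and 27.6, 27.2 and 28.3 CPM in DKO-C2, against 0.0553, 0 and 0 CPM in CDK19KO-C1 with 3.91, 3.48 and 4.53 CPM in CDK19KO-C2. TIMP3, an inhibitor of metalloproteinases, had 16.1, 16.7 and 16.7 CPM in DKO-C1 and 20.1, 18.7 and 19.6 CPM in DKO-C2, against 9.57, 10.0 and 8.24 CPM in CDK19KO-C1 with 0.0543, 0 and 0 CPM in CDK19KO-C2. ST6GALNAC3, a sialyltransferase, and SAMD4A, an RNA-binding repressor of translation, averaged 5.02 and 126 CPM in DKO, against 1.56 and 3.74 CPM in CDK19KO-C1 but 0.0181 and 30.0 CPM in CDK19KO-C2. DCLK1 and SAMD4A were lowest in CDK19KO-C1, whereas TIMP3 and ST6GALNAC3 were lowest in CDK19KO-C2. All 4 were still above every CDK19KO library in every DKO library.

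Ligands of the EGF receptor were among the genes that fell most. AREG, amphiregulin, had 19.5, 18.8 and 21.7 CPM in DKO-C1 and 16, 17.7 and 16.2 CPM in DKO-C2, against 288, 310 and 324 CPM in CDK19KO-C1 with 220, 227 and 215 CPM in CDK19KO-C2. DKO libraries were all near 20 CPM and CDK19KO libraries all above 200 CPM, with a change of -3.84 ± 0.055 (adjusted p = 1.4e-37). Control lay in between at 114, 147 and 131 CPM, as did CDK8KO at 46.1 CPM. EREG, epiregulin, which lies beside AREG in the genome, had 215, 197 and 197 CPM in DKO-C1 and 177, 133 and 162 CPM in DKO-C2, against 1257, 1232 and 1230 CPM in CDK19KO-C1 with 1283, 1336 and 1358 CPM in CDK19KO-C2, a change of -2.84 ± 0.051 (adjusted p = 2.4e-34). The family did not move together: HBEGF rose (15.2 CPM in DKO and 9.31 CPM in CDK19KO), EGF rose at a very low level (2 CPM in DKO and 0.294 CPM in CDK19KO), and of 13 ligands and receptors tested 6 were called higher and 4 lower. ERRFI1, an inhibitor of the receptor, had a log2 fold change of -0.75 ± 0.033, and of 0.0015 with ERCC scaling.

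HTR7, a serotonin receptor that raises cyclic AMP, had 2.38, 1.67 and 2.63 CPM in DKO-C1 and 2.83, 2.78 and 2.56 CPM in DKO-C2, against 73, 78.8 and 77 CPM in CDK19KO-C1 with 36.3, 37.8 and 37.6 CPM in CDK19KO-C2. The groups were well apart at -4.43 ± 0.072 (adjusted p = 8.9e-36). PODXL2, a sialomucin related to podocalyxin, was nearly absent from DKO, with 0.0529, 0.209 and 0.376 CPM in DKO-C1 and 0.427, 0.490 and 0.261 CPM in DKO-C2, against 22.8, 26.2 and 24.6 CPM in CDK19KO-C1 with 13.1, 13.8 and 11.3 CPM in CDK19KO-C2, and changed by -5.91 ± 0.15. In CDK19KO it exceeded the control level of 2.67 CPM. MAOB, monoamine oxidase B of the outer mitochondrial membrane, averaged 6.87 CPM in DKO and 59.9 CPM in CDK19KO (-3.12 ± 0.052). HS3ST1, a heparan sulfate sulfotransferase, averaged 25.7 CPM in DKO and 207 CPM in CDK19KO, and its 2 CDK19KO sublines differed, at 346 CPM in C1 and 66.8 CPM in C2. WNT16, a secreted Wnt ligand, averaged 25.6 CPM in DKO-C1 and 12 CPM in DKO-C2, against 117 and 148 CPM in the CDK19KO sublines; with sublines as units it was not called. RUNX2, a regulator of bone formation, fell by 2.96 on the log2 scale, KCTD12, an accessory subunit of GABA-B receptors, by 3.04, FBLIM1, which binds filamin, by 3.12, PRF1, perforin, by 3.35, and SCG2, a secretogranin, by 2.13. All 5 of these were under 20 CPM in every library of both groups.

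MYC and genes of growth were lower relative to the bulk of genes. MYC, the transcription factor that drives ribosome production, had 150, 151 and 150 CPM in DKO-C1 and 135, 146 and 132 CPM in DKO-C2, against 721, 742 and 783 CPM in CDK19KO-C1 with 329, 331 and 318 CPM in CDK19KO-C2. The groups did not overlap at -1.78 ± 0.045 (adjusted p = 2.3e-29), and the direction held with ERCC scaling at -1.02. CDK19KO-C1 alone lay above the control libraries of 423, 561 and 514 CPM, and CDK19KO-C2 lay below them. Of 34 ribosome biogenesis genes, 2 were called higher and 28 lower; of 15 with little shared sequence, 0 were higher and 7 lower in all 4 pairings, and their median of -0.29 flipped to 0.46 with ERCC scaling. FBL, the methyltransferase of box C/D particles, averaged 221 CPM in DKO and 347 CPM in CDK19KO. Of 30 nuclear respiratory chain genes 4 were called higher and 21 lower, with a median of -0.18 for those with little shared sequence that flipped to 0.57. NDUFB10 of complex I and UQCRC2 of complex III were among those that fell, by 0.68 and 0.54 on the log2 scale, and ERCC scaling turned both round. Of 13 mitochondrially encoded genes, 7 were called higher and 1 lower, and none was called in all 4 pairings. Of 34 ribosomal protein genes, which have many pseudogenes, 9 were higher and 16 lower (median -0.02, -0.14 for those with little shared sequence, 0.61 with ERCC scaling).

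Cell cycle lists were mixed. Of 30 S-phase genes, 8 were called higher and 16 lower, and the median of -0.19 for those with little shared sequence flipped to 0.57 with ERCC scaling. The helicase subunits MCM3, MCM4, MCM5 and MCM6 were lower relative to the bulk of genes, with log2 fold changes of -0.42, -0.39, -0.51 and -0.32. E2F7, GINS1 and CDC6 were higher (0.37, 0.46 and 0.30). Of 24 mitosis genes, 14 were called higher and 5 lower; MKI67 averaged 1014 CPM in DKO-C1 and 1017 CPM in DKO-C2, against 343 CPM in CDK19KO-C1 but 849 CPM in CDK19KO-C2. Replication-dependent histone genes, whose messages end in a stem-loop rather than a poly(A) tail, were called lower in 8 of 10 and higher in 1, at summed levels of 17.2 to 19.9 CPM in DKO and 23.3 to 50.2 CPM in CDK19KO. The median of the 8 with little shared sequence was -1.06, or -0.317 with ERCC scaling, where 0 of them were lower in all 4 pairings.

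Targets of p53, the stress-activated tumour suppressor that is unmutated in HCT116, were lower in DKO. Of 28 tested, 3 were called higher and 23 lower with a median of -0.81; of 15 with little shared sequence, 1 was higher and 8 were lower in all 4 pairings, with a median of -0.94. With ERCC scaling the median was -0.18, and 2 of these were higher and 0 lower in all 4 pairings. BTG2, an antiproliferative factor, had 15.3, 16 and 17 CPM in DKO-C1 and 16.7, 18.4 and 16.9 CPM in DKO-C2, against 69.7, 70.1 and 73.2 CPM in CDK19KO-C1 with 25.4, 24.2 and 24.4 CPM in CDK19KO-C2. DKO lay below both CDK19KO sublines, CDK19KO-C1 stood highest, and with sublines as units the gene was not called. FDXR, an electron donor of mitochondrial enzymes, averaged 36.9 CPM in DKO and 92.4 CPM in CDK19KO, with 52.3 CPM in control. Its CDK19KO sublines differed, at 127 CPM in C1 and 58.1 CPM in C2. CDKN1A, the cyclin-dependent kinase inhibitor p21, averaged 109 CPM in DKO and 354 CPM in CDK19KO, against 104 CPM in CDK8KO and 119 CPM in control; its exons overlap an opposite-strand gene. The DKO level of CDKN1A was thus near that of control and CDK8KO, and the CDK19KO level stood above all of them, at 528 CPM in C1 and 180 CPM in C2. TP53INP1, ZMAT3, DDB2 and AEN fell by 1.37, 1.02, 0.92 and 0.79 on the log2 scale. PLK2, a kinase induced by p53, rose instead (375 CPM in DKO and 185 CPM in CDK19KO). Among 15 BCL2 family genes 5 were higher and 7 lower; the antiapoptotic BCL2 rose (1.11 ± 0.065) and the proapoptotic BIK fell (-0.63 ± 0.072).

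Genes of the integrated stress response, the ATF4 programme of amino acid supply, went one way in DKO against CDK19KO and the other way in CDK8KO against control. Of 25 tested, 15 were called higher and 4 lower in DKO (median 0.23), but 1 higher and 20 lower in CDK8KO (median -0.45). Over all tested genes, 19.5% were called higher and 21% lower in CDK8KO against control. The spike-in label stands with DKO in the first contrast and with control in the second, so its part in this reversal cannot be told apart. STC2, a secreted glycoprotein, had 179, 169 and 176 CPM in DKO-C1 and 108, 118 and 112 CPM in DKO-C2, against 72.1, 70.0 and 66.6 CPM in CDK19KO-C1 with 62.1, 59.9 and 57.8 CPM in CDK19KO-C2, a change of 1.12 ± 0.041, and the DKO sublines differed from each other. In CDK8KO it fell, with 84.4 CPM against 168 CPM in control. PHGDH, which opens serine synthesis, averaged 171 CPM in DKO and 90.5 CPM in CDK19KO, with 159 CPM in CDK8KO and 205 CPM in control. PCK2 and CEBPG rose by 0.81 and 0.32 in DKO, while CTH, a cysteine-forming enzyme, fell by 0.94. The median level of the members plotted over the 4 genotypes was below control in DKO, CDK19KO and CDK8KO. STC2 was not called once the spike-in label was a term of the fit.

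**Figure D2:**
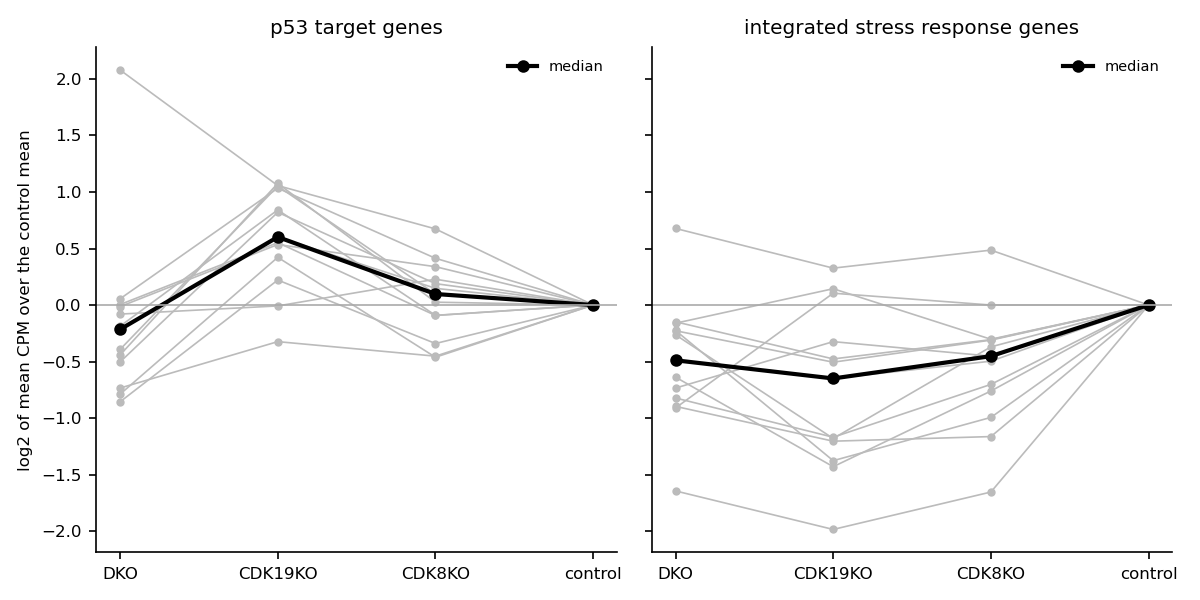
Log2 of the mean CPM over the control mean (y axis) in DKO, CDK19KO, CDK8KO and control (x axis), 1 grey line per gene with little shared sequence and at least 1 CPM in each, black for the list median. The p53 targets (13 genes) have a median of -0.22 in DKO, 0.60 in CDK19KO and 0.097 in CDK8KO; the integrated stress response genes (13 genes) have -0.49, -0.65 and -0.45.

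Secretory and signalling lists also shifted. Of 21 unfolded protein response genes 18 were called higher and 1 lower (median 0.29); the factor XBP1 averaged 113 CPM in DKO and 66.9 CPM in CDK19KO, the disulfide isomerase PDIA4 552 CPM in DKO and 365 CPM in CDK19KO, and the chaperone HSPA5 1023 CPM in DKO and 835 CPM in CDK19KO. Of 17 MAPK output genes 13 were higher and 3 lower (median 0.49), with EPHA2, an ephrin receptor, up by 1.20 and the phosphatases DUSP4 and DUSP5 by 0.69 and 0.75. Of 16 NF-kappaB targets 8 were higher and 4 lower, NFKB2 rising by 0.93. Immediate early genes divided, with 8 higher and 12 lower of 24: JUN rose by 1.43 and KLF4, also an intestinal factor, fell by 1.55. Wnt targets, of interest because of the known tie between CDK8 and beta-catenin, were called higher in 10 and lower in 5 of 16. Of 8 with little shared sequence, 4 were called higher and 3 lower, with a median of 0.097. SP5, a direct Wnt target, rose (6.32 CPM in DKO and 1.73 CPM in CDK19KO), whereas MYC, also on this list, fell (-1.78). Of 18 Notch pathway genes 3 were higher and 12 lower; NRARP, a feedback inhibitor, fell by 1.77 and HES1 rose by 0.76. The median of the Notch genes with little shared sequence, -0.27, flipped to 0.49 with ERCC scaling.

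Of 10 intestinal identity genes 1 was higher and 8 lower, and their median of -0.64 became 0.11 with ERCC scaling. Of 15 keratins 5 were higher and 9 lower (median -0.48), but the 4 with little shared sequence had a median of 0.60; KRT80 averaged 95.3 CPM in DKO and 18.6 CPM in CDK19KO and KRT19 460 CPM in DKO and 822 CPM in CDK19KO, and KRT19 was not called with ERCC scaling (-0.084, adjusted p = 0.45). The 8 colon epithelial markers summed to 5960 to 7580 CPM in DKO and 4950 to 5260 CPM in CDK19KO, KRT8 and KRT18 making up most of it. Of 5 tested, 3 were called higher and 2 lower, but 0 of those called higher had little shared sequence. The 2 with little shared sequence were both lower, with a median of -0.524, or 0.226 with ERCC scaling. CDH17, VIL1 and GPA33 stayed under 0.3 CPM in every library. Immune cell markers summed to 0.215 to 0.925 CPM in DKO and 0.445 to 1.11 CPM in CDK19KO, and endothelial markers to 0.417 to 1.01 CPM in DKO and 0.449 to 0.723 CPM in CDK19KO. Of 15 antigen presentation genes 13 were higher and 0 lower. Only 5 had little shared sequence, of which 4 were called higher and 2 were higher in all 4 pairings. B2M, among these, averaged 301 CPM in DKO and 201 CPM in CDK19KO. Of 21 interferon response genes 10 were higher and 6 lower. Semaphorins, neuropilins and plexins counted 9 higher and 7 lower of 22; SEMA3A, a repulsive guidance cue, averaged 24.2 CPM in DKO and 70.0 CPM in CDK19KO, without a call when sublines were the units.

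Cholesterol, fatty acid and glycolysis genes were called lower more often than higher relative to the bulk of genes. Cholesterol synthesis had 4 higher and 18 lower of 25, and its median with little shared sequence was -0.14, or 0.61 with ERCC scaling. Fatty acid genes had 5 higher and 9 lower of 17, and their median with little shared sequence was -0.106, or 0.639 with ERCC scaling. ACSL5, an acyl-CoA synthetase whose exons an opposite-strand gene overlaps, averaged 3.33 CPM in DKO and 247 CPM in CDK19KO, and 6.86 CPM in CDK8KO against 129 CPM in control. Glycolysis had 6 higher and 13 lower of 20, with LDHA at 1052 CPM in DKO and 1480 CPM in CDK19KO. Only 4 of these had little shared sequence, and their median of -0.255 became 0.503 with ERCC scaling. Hypoxia genes had 12 higher and 5 lower of 20, NRF2 genes 8 higher and 8 lower of 17, autophagy genes 7 higher and 13 lower of 27, and BET and P-TEFb genes 6 higher and 8 lower of 20.

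**Figure D3:**
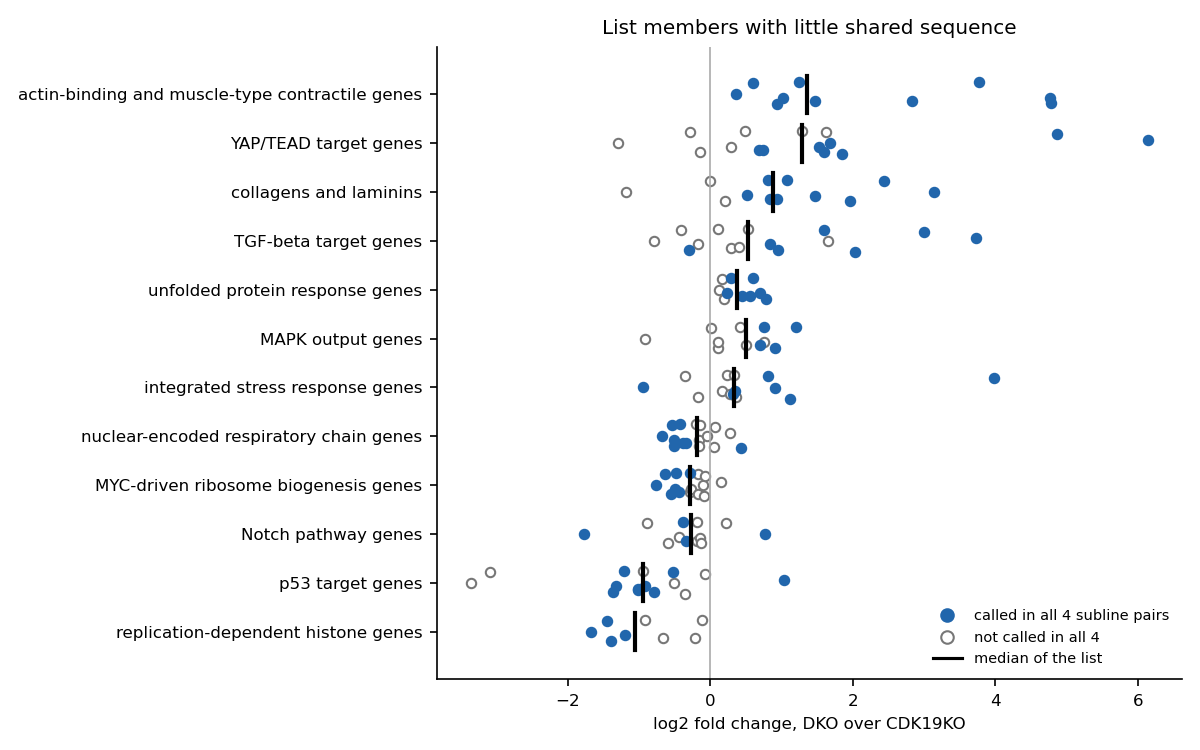
Log2 fold change, DKO over CDK19KO (x axis), of each member with little shared sequence in 12 gene lists (rows); filled points were called in all 4 subline pairs, open points were not, and the bar is the list median. Every contractile gene lies right of 0, and the p53 and histone lists have their medians near -1.

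The same step on the other background shared part of its calls. Among the 2735 genes with little shared sequence higher in DKO, 939 (34.3%) were also called higher in CDK8KO against control and 525 (19.2%) lower; the shared genes make up 56.5% of the 1661 that rose in CDK8KO, and 26% of all such genes rose there. Among the 2034 that were lower, 654 (32.2%) were also lower in CDK8KO and 388 (19.1%) higher, or 43.9% of the 1491 that fell there (23.3% of all such genes). These overlaps depend on the scaling and the units: with ERCC scaling 27 genes were called higher and 160 lower in both, and with sublines as units, where 1 control unit is left, 0 and 2. Across the 6391 genes the 2 sets of log2 fold changes had r = 0.509, a description, since genes are not replicates. The genes whose smaller change was largest were MYL2, TIMP3, SKIDA1, ANKRD1, TNNC1 and SMAD6 among the rises, and HTR7, MAOB, PODXL2, HS3ST1, SCG2 and AREG among the falls. For ANKRD1 this came from 1 CDK8KO subline, with 2.14, 1.55 and 1.78 CPM in CDK8KO-C1 and 0.331, 0.0520 and 0.107 CPM in CDK8KO-C2, against 0.262, 0.110 and 0 CPM in control. SMAD6 had 28.3, 29.7 and 30.8 CPM in DKO-C1 and 31.8, 37.7 and 31.9 CPM in DKO-C2, against 5.92, 7.13 and 6.79 and 9.72, 8.59 and 8.91 CPM in the CDK19KO sublines. It likewise had 18.3, 16.4 and 16.4 CPM in CDK8KO-C1 and 29.5, 28.7 and 29.9 CPM in CDK8KO-C2, against 7.13, 5.75 and 6.26 CPM in control. The changes were 2.03 ± 0.061 and 1.80 ± 0.084, and their difference was 0.22 ± 0.11 (adjusted p = 0.078). SCG2 changed by -2.13 ± 0.096 and -1.93 ± 0.088, with a difference of -0.20 ± 0.14 (adjusted p = 0.22). HTR7 fell by 4.43 in DKO and by 2.97 in CDK8KO, where the sublines stood apart at 18.9 CPM in C1 and 1.32 CPM in C2.

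Several of the largest rises were not called in CDK8KO against control. EDN1 changed there by 0.04 ± 0.33 (adjusted p = 0.94) and DCLK1 by -0.37 ± 0.17 (0.075). SLC1A3 changed by 0.10 ± 0.058 (0.17), a mean of sublines on opposite sides of control: it had 50.3, 46.5 and 48.4 CPM in CDK8KO-C1 and 15.9, 15.7 and 16.3 CPM in CDK8KO-C2, against 24.6, 27 and 26.2 CPM in control. CYR61 rose there by 0.92 ± 0.12, and the change in DKO exceeded that by 3.95 ± 0.16 (adjusted p = 1.6e-22). The difference between the backgrounds was called for 62.4% of all genes with little shared sequence. It takes in the counting of the DKO columns and the spike-in label, which stands with DKO in one contrast and with control in the other, so that these cannot be told apart from the background.

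**Figure D4:**
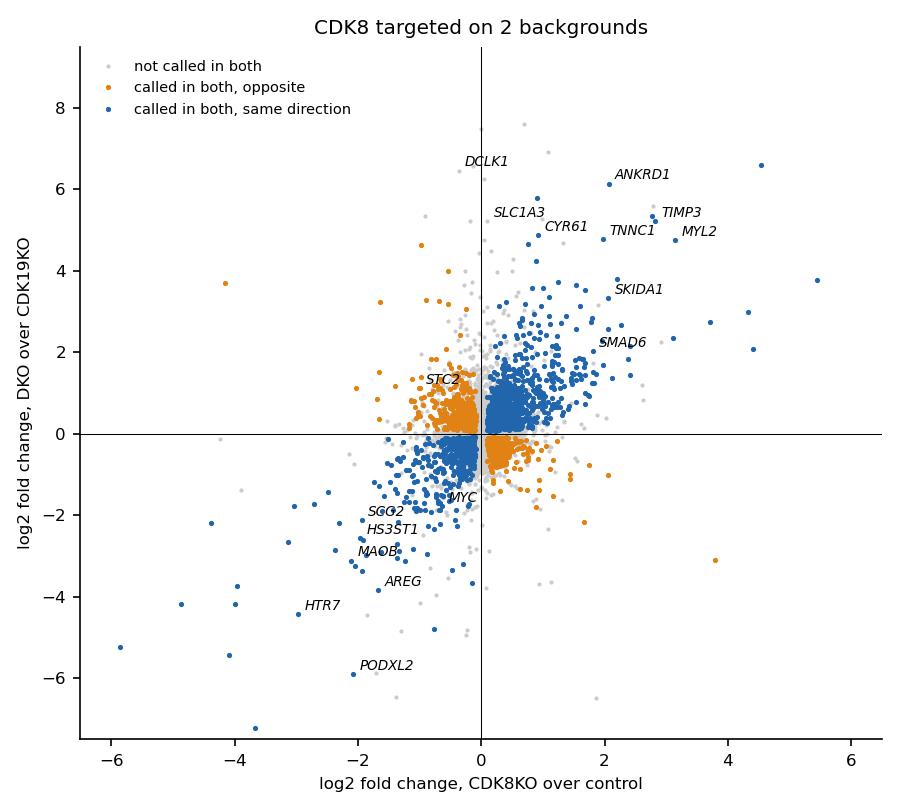
Log2 fold change of DKO over CDK19KO (y axis) against CDK8KO over control (x axis) for the 6391 genes with little shared sequence, 7 of them outside the axes; blue points were called in both in the same direction, orange points in both in opposite directions, grey points not in both. MYL2, TIMP3 and TNNC1 lie high on both axes, HTR7, PODXL2 and MAOB low on both, and DCLK1 high on the y axis alone; SLC1A3, near 0 on the x axis, averages a CDK8KO subline above control and one below it.

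Genes with copies or overlapping exons are kept apart. As a whole they were called about as often as the others, 70.9% against 74.6% of genes with little shared sequence. Large falls were more frequent among genes that share over 10% of their words, and overlap alone was not looked at in this way. Among protein-coding genes with no shared words, 0.902% were at least 4-fold lower in DKO. With 10% to 50% of words shared the figure was 4.57%, and with over 50% it was 11.1%. In CDK8KO against control the figures were 0.467%, 0% and 0%. PTP4A1, a phosphatase with 77.8% of its words shared, had 0, 2 and 1 counts in DKO-C1 and 2, 3 and 3 in DKO-C2, against 13330, 13480 and 13243 in CDK19KO-C1 and 10045, 9789 and 10590 in CDK19KO-C2. The gene was at 377 CPM in control and 309 CPM in CDK8KO. WDR83OS (73.7% shared), COG8 (94.9%) and ECE2 (56.9%) had 0 counts in all 6 DKO libraries. Against a floor of 3 counts over the DKO libraries they were at least 1193-fold, 537-fold and 345-fold lower than in CDK19KO. PYURF (19% shared, overlapping genes on both strands) had 597, 521 and 507 counts in DKO-C1 and 523, 495 and 487 in DKO-C2, against 0, 0 and 0 in CDK19KO-C1 and 0, 0 and 1 in CDK19KO-C2, a ratio of 3014 with a 95% counting interval of 541 to 119080. POLR2F, a subunit of all 3 nuclear RNA polymerases with 2 opposite-strand overlaps, had 990, 885 and 978 counts in DKO-C1 and 934, 1133 and 935 in DKO-C2, against 7, 8 and 10 in CDK19KO-C1 and 4, 2 and 1 in CDK19KO-C2. TM4SF1, a membrane protein of the tetraspanin-like L6 family, and SERTAD4 overlap another gene on the opposite strand. TM4SF1 had 348, 335 and 336 counts in DKO-C1 and 926, 930 and 961 in DKO-C2, against 0, 0 and 0 in CDK19KO-C1 and 0, 2 and 4 in CDK19KO-C2. It had no count in control and 0.192 CPM in CDK8KO. SERTAD4 averaged 24.8 CPM in DKO and 0.338 CPM in CDK19KO.

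Among the list members, several housekeeping genes with copies showed the same extremes. The glycolytic enzymes ALDOA (36.5% shared) and LDHB (29.7%) averaged 30.0 CPM in DKO and 1160 CPM in CDK19KO and 29.8 CPM in DKO and 1114 CPM in CDK19KO, with 1012 and 989 CPM in control. NOP2, NUSAP1, TIGAR and RNF43, with 46.3%, 49.6%, 40.5% and 57.1% shared, were lower, with log2 fold changes of -5.81, -2.54, -3.78 and -2.12. The ribosomal protein genes RPS27 and RPS28 went the other way, at 241 CPM in DKO and 10.1 CPM in CDK19KO and 125 CPM in DKO and 6.25 CPM in CDK19KO. Of the 12 largest falls among genes with little shared sequence, 3 are retrocopies or near copies of another gene, with 8.70% (NACA2), 5.52% (PABPC3) and 9.93% (UQCRHL) of words shared. PABPC3 averaged 4.51 CPM in DKO and 57.6 CPM in CDK19KO, with 61.5 and 68.1 CPM in CDK8KO and control. NACA2 and UQCRHL averaged 0.184 CPM in DKO and 5.80 CPM in CDK19KO, and 4.10 CPM in DKO and 38.4 CPM in CDK19KO. For each gene of this group the CDK19KO, CDK8KO and control means lay nearer to each other than to DKO.

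**Figure D5:**
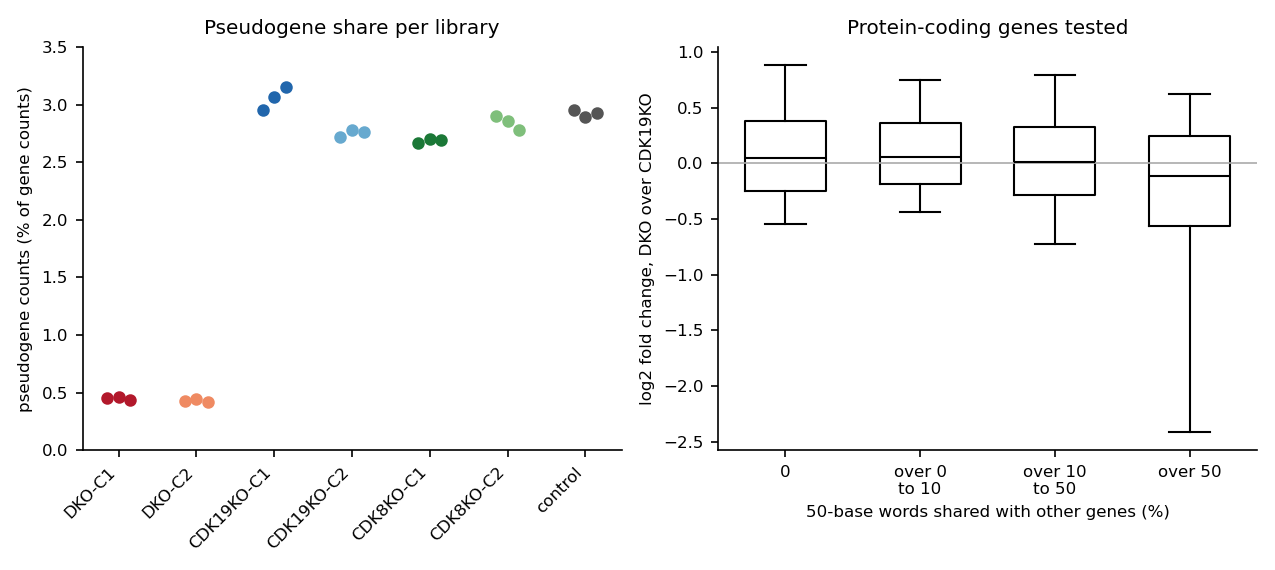
Left, the share of gene counts on pseudogenes (%) in each library by subline; the 6 DKO libraries lie under 0.5% and all others above 2.6%. Right, log2 fold change, DKO over CDK19KO, of tested protein-coding genes by the percentage of 50-base words shared with other genes; boxes span the quartiles with a line at the median, and whiskers reach the 10th and 90th percentiles, the lower of which falls to -2.47 where over 50% of words are shared.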

How the data were processed

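The submitters' processing notes name STAR 2.5.2, build hg38, and featureCounts of Subread 1.6.3; annotation release and strand setting are not stated there. The authors deposited raw counts per gene and ERCC transcript, 58131 features, with no normalisation. Of 26 columns, 22 matched a sample by name and 4 a group only: the 3 of DKO-C2, whose names carry another clone number, are called a, b and c.

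Counts were fitted with edgeR 4.0.16 (R 4.3.3; quasi-likelihood, 9 groups, all 26 libraries, TMM, filterByExpr with minimum count 10 and total 15). The contrast is the mean of DKO sublines minus the mean of CDK19KO sublines, two-sided, adjusted over 17198 genes. The fit was tested on simulated data. Shared 50-base words (1 in 8) and exon overlaps come from GENCODE v29; 17184 tested genes had a value.

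Members and lists (40, 818 entries, 816 in the table, 742 tested) were chosen with earlier results of these data known. Named are CDK8 and CDK19; the 12 largest rises and falls with little shared sequence, called in all 4 pairings without overlap at 5 CPM or more; 6 rises and 6 falls shared with CDK8KO; up to 3 members per list; and 4 rises and 4 falls that fail the sharing condition alone. Other list members called in all 4 pairings, and a few outside that rule, were chosen after their values were seen. Clone-based names and Y genes were passed over, and 1 gene that the rule names is not reported here. Alternatives were DESeq2 1.42.0, limma 3.58.1 voom and other scalings, filters, units and gene sets; those of genes with no shared word and of TMM from genes with little shared sequence were added after seeing the data. Counting intervals and floors cover counting error only. Replicate numbers do not pair the libraries: correlations of same-numbered deviations ran from -0.0629 to 0.0665.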

Additional observations from a re-analysis of the deposited data

Results flagged for a closer look

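The change in DKO against CDK19KO was tested against the change in CDK8KO against control, and the values here are the first minus the second on the log2 scale, each with an adjusted p under 0.05 (edgeR). No group has enough libraries for a test of single outlying ones. The part of the counting difference of the DKO columns in these values was not tested.

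Among the rises the difference was 6.83 for DCLK1, 6.22 for EDN1, 5.12 for SLC1A3, 4.29 for FGF1, 4.08 for ANKRD1, 3.95 for CYR61, 3.90 for ST6GALNAC3, 2.79 for TNNC1, 2.57 for SAMD4A, 2.40 for TIMP3, 1.62 for MYL2 and 1.26 for SKIDA1. Among the falls it was -3.83 for PODXL2, -2.88 for PRF1, -2.17 for AREG, -2.08 for RUNX2, -1.89 for FBLIM1, -1.67 for KCTD12, -1.47 for HTR7, -1.28 for WNT16, -1.01 for MAOB and -0.60 for HS3ST1. The copies NACA2, PABPC3 and UQCRHL had -4.71, -3.53 and -2.91. CDK8 had -0.37 and CDK19 0.38.

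Genes with shared sequence or overlap had 12.60 (PYURF), 7.57 (POLR2F), 4.37 (SERTAD4), -12.45 (PTP4A1), -11.91 (WDR83OS), -10.73 (COG8) and -9.78 (ECE2); the last 3 rest on 0 counts in DKO. PYURF rests on 1 count over the CDK19KO libraries. DCLK1, EDN1 and ANKRD1 rest on 1, 1 and 2 counts over CDK19KO-C1, and TIMP3 and ST6GALNAC3 on 1 count each over CDK19KO-C2. Fitted values at such counts depend on the prior count, so their size is no bound. SLC1A3 sets DKO against a CDK8KO mean of sublines above and below control.

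ERCC counts appear in CDK19KO libraries whose labels name no spike-in, with 566086 in the lowest of them.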

How the results depend on the processing

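DESeq2, DESeq2 size factors, limma voom, other filters on low counts, protein-coding genes alone and the 12 libraries alone changed no direction or call of a gene named by the rule and no count over all genes by over 1.5 times. Without 1 library, calls ran from 5915 to 6137 higher and 5807 to 6029 lower, calls in all 4 pairings from 1250 to 1420 and 858 to 1031, calls shared with CDK8KO from 904 to 972 and 602 to 684, differences between backgrounds within the called set from 1789 to 2087, CDK8 from -0.5619 to -0.5177 and CDK19 from 0.6835 to 0.7451.

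In the order called, called in all 4 pairings, shared with CDK8KO (each higher, then lower) and different between backgrounds, the main counts were 6110 and 5969, 1347 and 951, 939 and 654, and 1927. A 2-fold minimum gave 1255 and 1817, 235 and 84, 88 and 60, and 258. ERCC factors gave 13623 and 1647, 4200 and 56, 27 and 160, and 4227. Genes with little shared sequence alone gave 2448 and 2328 called, fewer by construction. Genes with no shared word gave 1386 and 1442, 653 higher in all 4 pairings, 463 higher shared, and 1146. Sublines as units gave 1699 and 2403, with 0 and 2 shared, as 1 control unit is left there; they allow no pairings, and the spike-in label term allows none of the last 3 measures.

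ERCC factors reversed CDK8 (0.20), ATG2A (0.084), ATP5A1 (0.23), BCL2L11 (0.11), CCNC (0.34), CDX2 (0.33), DLGAP5 (0.14), ERRFI1 (0.0015), FASN (0.042), FBL (0.12), FDFT1 (0.11), MED24 (0.23), NDUFB10 (0.081), SQSTM1 (0.10), TYMS (0.27) and UQCRC2 (0.21), and ended the calls of FOXA1, JAG2, KRT19, MVK, PES1 and SAMD9. These factors shift CDK8KO against control by -1.22 too. The spike-in label term amounts to the mean of DKO against CDK19KO and CDK8KO against control, so opposite changes in these cancel. It reversed NQO1 (-0.15) and ended the calls of STC2 (0.062) and TXNRD1 (0.050). Of the calls in all 4 pairings, 1230 of 1347 and 852 of 951 were still called in that mean. Sublines as units ended the calls of 29 genes named by the rule, the most of any setting, and not all of these are marked in the sections above. Where a cause is not shown by the setting itself, the cause was not tested.

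With the replicate block, over the numbered libraries and DKO-C1 alone, 5801 genes were called higher and 5778 lower, against 5800 and 5797 without it. CDK8 and CDK19 kept their calls. Depth limits genes at a few counts: 0 counts in DKO give a bound only.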
